A study of Mus musculus with 4 samples.

Results

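Eph receptors, ephrins, semaphorins, plexins and neuropilins, the cell-surface and secreted molecules by which cells attract or repel each other, were examined in cells labelled as immortalised mouse mammary epithelium. The genes were chosen by symbol alone: every gene whose symbol follows the Epha, Ephb, Efna, Efnb, Sema3 to Sema7, Plxna to Plxnd or Nrp pattern and that had a probe set annotated to that single gene. There were 52 such genes among 18193 genes, with 123 of the 45037 probe sets tested, and each gene was represented by the probe set with the highest mean over the 4 arrays. They comprised 13 Eph receptors, 8 ephrins, 20 semaphorins, 9 plexins and 2 neuropilins. Ephb2 was the 1 gene of 53 matching symbols in the RefSeq gene table with no such probe set, and it was not analysed here.

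Mammary epithelial cells of Deaf-1-null female mice, 8 weeks old (the labels name a single mouse, the methods mice), had been immortalised with a retrovirus carrying the E6 and E7 proteins of human papilloma virus HPV16, and clones C1 and E1 were isolated. All 4 arrays therefore come from cells labelled Deaf-1-null that carry E6 and E7. Each clone received either an empty puromycin-resistance retrovirus (control, n = 2 arrays) or the same vector encoding Deaf-1, a transcription factor that binds TTCG motifs (n = 2 arrays), and RNA was taken after 48 h of puromycin selection. RNA abundance was measured on 1 Affymetrix Mouse Expression Set 430 2.0 array per clone and retrovirus, with no repeat of any combination. Each clone is a single line, so p-values measure only the spread between these arrays.

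Ephrins are membrane-bound ligands that bind Eph receptor tyrosine kinases on neighbouring cells, and both partners can signal into their own cell. Semaphorins signal through plexins, whose intracellular domain acts on Ras-family GTPases, and the secreted class 3 semaphorins mostly need a neuropilin as co-receptor. These families guide axons and blood vessels, and EphB4 and ephrin-B2 are also known in the development of the mammary ductal tree.

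The Deaf1 probe set gave log2 levels of 5.01 in control and 6.73 in Deaf-1 cells of clone C1, and of 4.91 and 6.25 in clone E1, a difference of 1.53 ± 0.21 (SE, n = 2 arrays per group). The control cells thus read above the background level of 3.83 for a gene labelled null in them, and the sources used here do not place the probes relative to the disrupted part. The background level is the 95th percentile of the means of 44 olfactory receptor probe sets. Of 9 luminal markers 5 were above background on all 4 arrays, and of 8 myoepithelial and basal markers 4 had means above it. Krt18, Cdh1 and Krt14 were below background on all 4 arrays, Krt8 lay between 3.46 and 4.01, and Epcam between 5.81 and 6.33. Of a list of 10 fibroblast markers all had means above background, and Col1a1 lay between 12.49 and 12.82. Markers of the labelled epithelial identity were thus detected in part, beside all those of the fibroblast list. A difference in bulk RNA cannot separate fewer cells of a type from less RNA per cell.

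Promoters of the semaphorin Sema3e, the receptor Epha7 and the co-receptor Nrp2 are shown because the labels name Deaf-1 target genes as the aim of the study. These are some of the 7 genes with an unadjusted p under 0.01 between the clones in limma, picked without a set rule. The stretches lie on the plus strand of GRCm38.p6 (RefSeq), upstream of the annotated gene start, and capitals mark TTCG or its reverse complement CGAA. They span chr4:28812881-28813065 for Epha7 (185 bases, cut before the first annotated base), chr1:62703067-62703316 for Nrp2 and chr5:14025026-14025275 for Sema3e (250 bases each).
Epha7: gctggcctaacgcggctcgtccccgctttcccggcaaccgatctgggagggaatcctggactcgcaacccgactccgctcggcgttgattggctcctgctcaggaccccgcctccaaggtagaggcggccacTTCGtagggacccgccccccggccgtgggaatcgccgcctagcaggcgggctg
Nrp2: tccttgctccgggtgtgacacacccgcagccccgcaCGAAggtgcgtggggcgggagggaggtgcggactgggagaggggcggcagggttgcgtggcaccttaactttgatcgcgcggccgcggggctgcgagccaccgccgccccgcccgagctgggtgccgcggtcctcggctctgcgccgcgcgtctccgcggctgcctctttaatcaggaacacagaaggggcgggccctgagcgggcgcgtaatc
Sema3e: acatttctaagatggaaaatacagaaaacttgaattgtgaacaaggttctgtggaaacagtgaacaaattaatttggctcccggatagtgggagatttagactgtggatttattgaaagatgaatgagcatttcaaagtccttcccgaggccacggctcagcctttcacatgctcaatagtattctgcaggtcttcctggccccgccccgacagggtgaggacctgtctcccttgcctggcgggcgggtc
The Epha7 stretch held 1 such motif, 53 bases before the gene start, the Nrp2 stretch held 1, 214 bases before it, and the Sema3e stretch held 0. The full 250 bases of Epha7, beyond the printed stretch, held 2. Of the other genes at that p, every listed promoter of Epha4, Ephb6 and Sema4a held 0, and none was available for Plxna1. In the 250 bases upstream of the start, 25 of 60 promoters of 46 members (41.7%) had at least 1 TTCG on either strand, against 38.7% of all 32851 promoters, and 8 (13.3%) had at least 2, against 12.5%. The 2 orientations overlap where the letters read TTCGAA. The median G+C content was 64.2% for the member promoters and 52.4% for all. The shares of promoters with the motif thus lay within a few percentage points of those of all promoters. A match to these letters is a description and is no evidence of binding.

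Most of the guidance genes were detected. The mean over the 4 arrays was above background for 40 of 52 genes (76.9%), against 64.5% of all 18193 genes. On all 4 arrays 36 genes were above background, 10 were below on every array and 6 were above on some. The level of a probe set depends on its own sequence, so levels are given for each gene and are not ranked between genes.

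Eph receptors were the family least often detected, with 6 of 13 means above background. Ephb4, the receptor of ephrin-B2, read 7.37 (control) and 7.52 (Deaf-1) in C1 and 7.29 and 7.32 in E1. Ephb3 read between 5.54 and 5.77 on all arrays. Epha2 lay at 3.58, 3.79, 3.67 and 3.72 in the same order of arrays, below background on each. Epha5, Epha6 and Ephb1 were below background throughout, with means between 2.46 and 3.02.

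Among their ligands, 7 of 8 ephrin genes had means above background, and Efnb3 (mean 3.76) was the exception. Efnb1, a transmembrane ligand, read 8.47 and 8.43 in C1 and 8.12 and 8.16 in E1 (control, then Deaf-1). Efnb2 read 6.32, 6.39, 6.48 and 6.33, so ligand and receptor of the Efnb2 and Ephb4 pair were both detected on every array. Efna1, whose receptor Epha2 was below background, read 4.30 and 4.05 in C1 and 3.93 and 3.90 in E1.

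Semaphorins were above background by their mean in 17 of 20 cases, and Sema3d, Sema3g and Sema5a were not. The secreted ligand Sema3f read 7.02 and 7.48 in C1 and 7.14 and 7.30 in E1. Sema3a, the classical growth-cone repellent, read between 5.85 and 6.23, and its co-receptor Nrp1 between 9.48 and 9.83. The co-receptor of Sema3f, Nrp2, is described below with the clones. Sema4d read between 4.01 and 4.52, beside its receptor Plxnb1 between 5.90 and 6.84. Sema7a, which is anchored to the membrane by a lipid, read between 4.27 and 5.01, whereas its receptor Plxnc1 had a mean of 3.46 and was above background on 1 array.

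Plexins were above background by their mean in 8 of 9 cases, the exception being Plxnc1. Plxnb2, a receptor of class 4 semaphorins, read 8.57 and 8.54 in C1 and 8.79 in both cultures of E1. Plxnd1, which binds Sema3e without a neuropilin, read between 5.91 and 6.11, so ligand and receptor of this pair were likewise both above background.

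**Figure D1:**
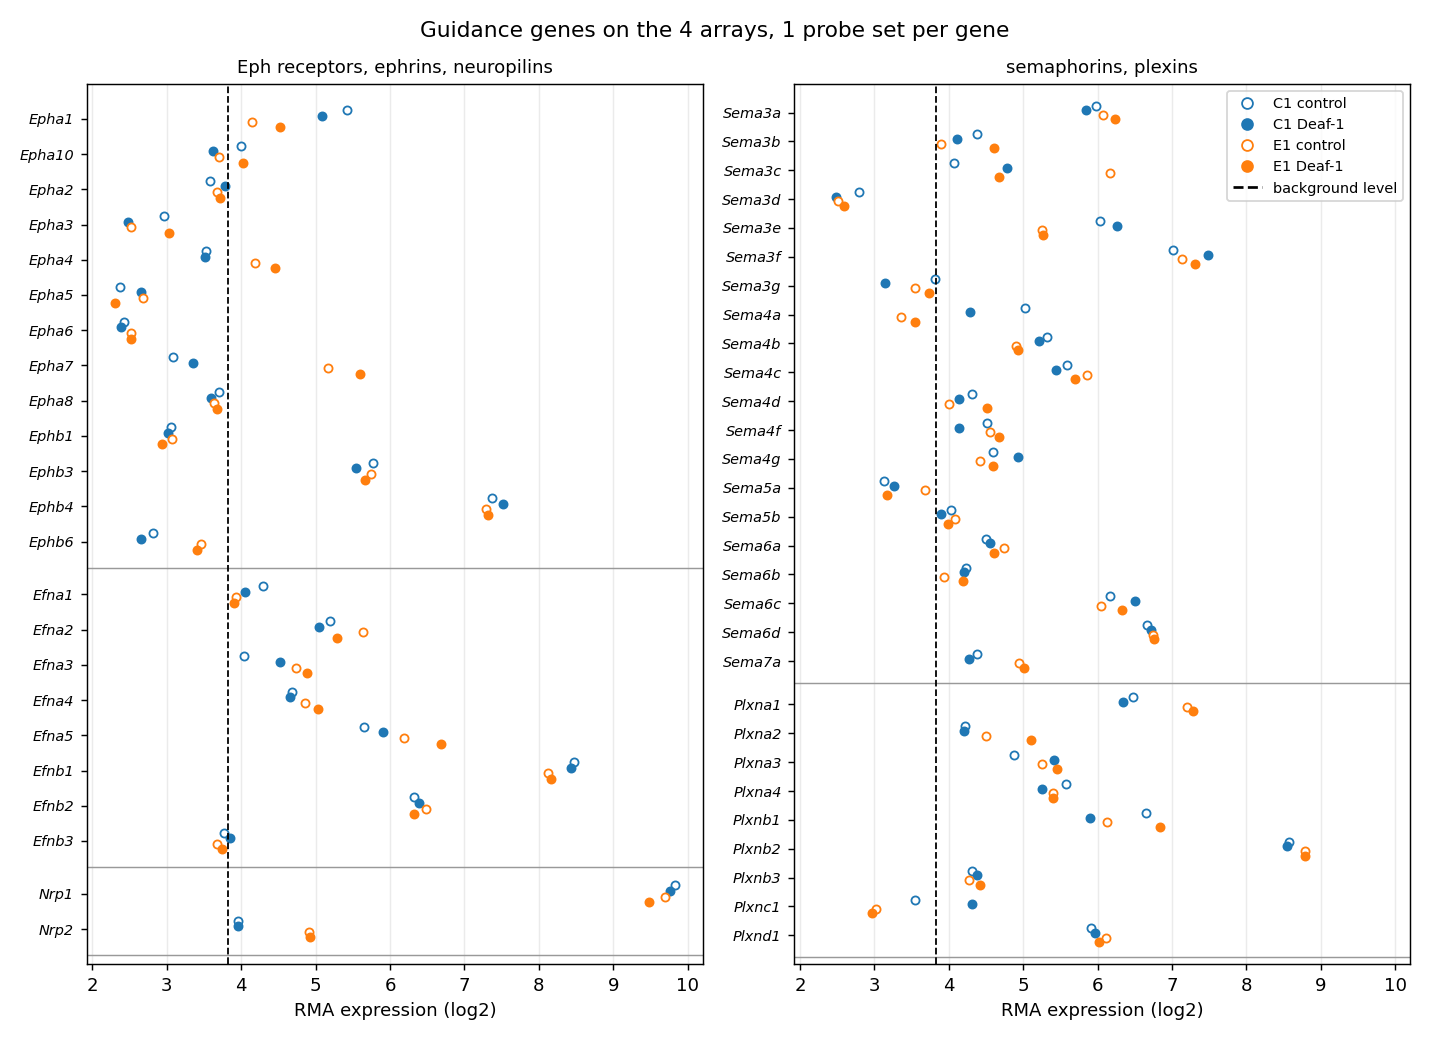
RMA expression (log2, x axis) of the 52 guidance genes, 1 probe set per gene, on the 4 arrays. Open and filled points are control and Deaf-1 arrays, colours are the clones, and the dashed line is the background level of 3.83. Most semaphorins, plexins and ephrins lie to the right of the line, and 7 Eph receptor means lie to its left.

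The first comparison asked whether Deaf-1 altered these genes, with the clones as replicates and without clone in the model. No guidance gene passed an unadjusted p under 0.01 in limma (0 of 52), and 0 of the 123 probe sets did. Over all probe sets 0.0111% passed. At an unadjusted p under 0.05, where no share of all genes was counted, 0 of 52 genes passed. A clone block left the count of genes at 0 for either threshold, and 0.0244% of all probe sets then passed p under 0.01. With that block a second Sema3c probe set, below background by its mean, had an unadjusted p of 0.043 in limma (difference -0.42). Adjusted p-values were 1 for every gene. Log2 differences (Deaf-1 minus control) ran from -0.39 for Sema3c to 0.37 for Efna5, with a median of -0.017 (-0.0068 over all genes). The median size was 0.12 against 0.092 over all genes, and the median SE was 0.20.

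With Deaf-1, 13 guidance genes were higher in both clones, 9 were lower in both and 30 moved in opposite directions. The 22 with 1 direction are 42.3% of the genes, against 37.8% of all genes. In 9 genes (17.3%) the Deaf-1 arrays did not overlap the control arrays, 6 with higher and 3 with lower values, against 16.1% of all genes. Both shares were close to those over all genes.

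The genes with the highest moderated t were the semaphorins Sema3f, Sema6c and Sema4g, the plexin Plxna3, a receptor of class 3 semaphorins, and the ephrin Efna5. For Sema3f, with the values given above, both Deaf-1 arrays were above both control arrays, and the difference was 0.31 ± 0.16 (95% confidence interval -0.10 to 0.73). All 3 Sema3f probe sets had a positive difference (0.31, 0.42 and 0.21). On the further ones, with means above background, the Deaf-1 and control arrays overlapped. The interval spans 0 and leaves room for a difference of up to 0.73.

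Sema6c, a transmembrane semaphorin, read 6.17 in control and 6.505 in Deaf-1 cells of C1 and 6.05 and 6.33 in E1, a difference of 0.31 ± 0.16. Plxna3 read 4.88 and 5.41 in C1 and 5.26 and 5.45 in E1, a difference of 0.36 ± 0.19. The groups did not overlap in either gene on these probe sets, and the SEs were near the median SE of 0.20. They did overlap on the further probe sets of both genes, all with means above background. Those gave 0.061 and 0.21 for Sema6c and 0.12 for Plxna3. Sema4g differed by 0.26 ± 0.19. Efna5 read 5.65 and 5.90 in C1 and 6.19 and 6.68 in E1, so that the groups overlapped. It rose by 0.25 in C1 and by 0.49 in E1. Its difference was 0.37 ± 0.34, with an SE of 0.15 when clone was a block. Its second probe set, below background on every array, gave -0.15. Without the Deaf-1 array of E1 the difference was -0.021. That fit sets the Deaf-1 array of C1 against control arrays of both clones, so the difference between the clones enters it.

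Among genes with means above background, the lowest moderated t belonged to the ligand Efna2 (-0.25 ± 0.22), the receptors Ephb3 (-0.16 ± 0.15) and Plxna4 (-0.16 ± 0.16), the co-receptor Nrp1 (-0.15 ± 0.17) and the semaphorin Sema4c (-0.15 ± 0.19). Of these, only Ephb3 had both Deaf-1 arrays (5.54 and 5.67) below both control arrays (5.77 and 5.75). The other 3 Nrp1 probe sets had differences of the opposite sign, from 0.11 to 0.25. So did the second probe set of Efna2 (0.067), above background by its mean, and that of Plxna4 (0.048), below background.

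The widest opposite movement was that of Sema3c, a secreted semaphorin. Its level was 4.07 in control and 4.78 in Deaf-1 cells of C1, but 6.16 and 4.68 in E1. The control array of E1 thus stood apart from the other 3 arrays. Without the control array of C1, Sema3c was the 1 guidance gene with an unadjusted p under 0.01 in limma (difference -1.44, adjusted p = 1). That fit sets the single E1 control array against 2 Deaf-1 arrays and assumes that the lone array varies like them. Without the control array of E1 the difference was 0.66. Plxnb1, the Sema4d receptor, read 6.66 and 5.90 in C1 and 6.12 and 6.84 in E1, and its mean difference was -0.017 ± 0.38.

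**Figure D2:**
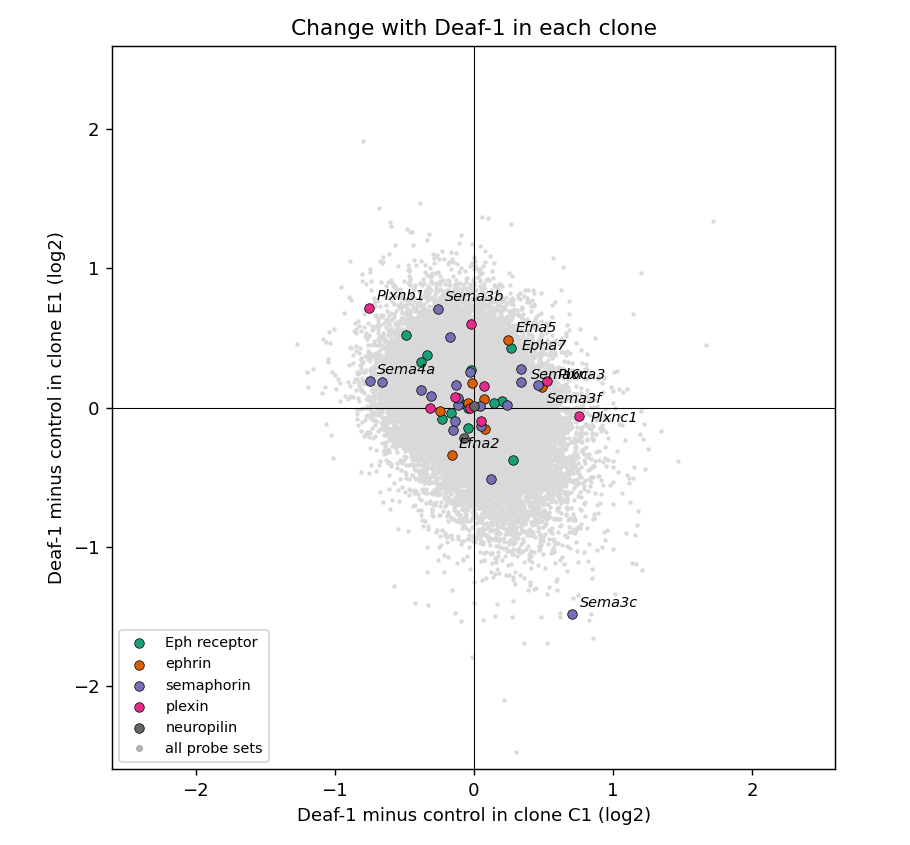
Log2 change with the Deaf-1 retrovirus relative to the empty one, clone C1 on the x axis and clone E1 on the y axis; coloured points are the guidance genes by family and grey points all probe sets tested, of which 1 lies outside the plotted range. Sema3c and Plxnb1 lie far from the centre in quadrants of opposite sign, and the genes as a whole lie within the grey cloud.

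The second comparison set clone E1 against clone C1, with retrovirus as a block. No guidance gene passed an adjusted p under 0.05 in limma (0 of 52), as 0.109% of all probe sets did, and the lowest adjusted p was 0.053, for Epha7. At an unadjusted p under 0.05 the count was 13, a threshold for which the share of all genes was not counted. At an unadjusted p under 0.01 there were 7 genes (13.5%), 5 higher in E1 (Epha7, Nrp2, Plxna1, Epha4 and Ephb6) and 2 lower (Sema3e and Sema4a). They were read by probe sets 1427528_a_at (Epha7), 1435349_at (Nrp2), 1428623_at (Plxna1), 1421928_at (Epha4), 1418051_at (Ephb6), 1427673_a_at (Sema3e) and 1448110_at (Sema4a). On the same scale of 1 probe set per gene 6.95% of all genes passed. Of all probe sets 5.38% passed, 2.55% higher and 2.83% lower in E1, and of the 123 guidance probe sets 10 did. In the fit without the block, 7 genes had an adjusted p under 0.05, against 6.76% of all genes and 5.12% of all probe sets. Of these, 6 are among the 7 above, the other being Sema7a in place of Sema4a.

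The Eph receptors gave 3 of the 7 genes, all higher in E1. Epha7, a receptor of A-type ephrins, read 3.08 (control) and 3.35 (Deaf-1) in C1 and 5.17 and 5.60 in E1, so that it was below background on both arrays of C1 and above it on both arrays of E1. On this probe set, taking the background level for C1, Epha7 was at least 2.94-fold higher in E1 (adjusted p = 0.053 in limma). Its mean passed background through E1 only. Bounds written as "at least" were set in this way, on the probe set that represents the gene, for genes below background on both arrays of 1 clone. Efnb3 was such a gene too, but no bound followed for it. All 4 Epha7 probe sets had a positive difference, and on 2 of them the mean level was below background.

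Epha4, a receptor of both ephrin classes, read 3.53 and 3.51 in C1 and 4.18 and 4.45 in E1, again on either side of the background level. It was at least 1.4-fold higher in E1 (adjusted p = 0.16 in limma), and its mean too passed background through E1 only. Its 5 probe sets all had a positive difference, but 3 of them had means below background. The further one with a mean above background gave a smaller difference, 0.57. Ephb6, which lacks kinase activity, read 2.82 and 2.66 in C1 and 3.45 and 3.41 in E1. All 4 values lay below background, so no fold is given, and the gene has 1 probe set.

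Epha1 had the opposite sign. It read 5.42 and 5.08 in C1 and 4.15 and 4.52 in E1, without overlap. The difference was -0.91 ± 0.22 (adjusted p = 0.21 in limma), and a second probe set gave -0.90 with an unadjusted p of 0.0056 in limma. It thus missed an unadjusted p of 0.01 on the probe set that represents it. The other receptors with means above background, Epha10, Ephb3 and Ephb4, differed by 0.049 ± 0.22, 0.055 ± 0.15 and -0.14 ± 0.14.

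None of the 8 ephrins had an unadjusted p under 0.01. The arrays of the clones did not overlap in 7 of them, 4 with higher and 3 with lower values in E1, where 51.8% of all genes have no overlap. Efna5 differed by 0.66 ± 0.15 and Efna3 by 0.53 ± 0.16, the latter read at 4.03 and 4.52 in C1 and at 4.74 and 4.88 in E1. Efnb1 differed by -0.31 ± 0.14. In Efnb2, the ligand of Ephb4, the arrays overlapped and the difference was 0.047 ± 0.15.

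Both neuropilins had arrays that did not overlap between the clones, as did 51.8% of all genes, with opposite signs. Nrp2, the co-receptor of Sema3f, read 3.96 and 3.96 in C1 and 4.91 and 4.92 in E1. On the probe set that represents Nrp2 the difference was 0.96 ± 0.14 (1.94-fold, adjusted p = 0.12 in limma). It was far larger there than the spread between the 2 arrays of either clone. The C1 readings lay just above the background level, so the fold is counted from near background. All 4 probe sets had a positive difference, from 0.065 to 0.96. Another, above background by its mean, gave 0.55, where Deaf-1 minus control was 0.31 in C1 and 0.30 in E1. A further one, below background by its mean, gave 0.48, where Deaf-1 minus control was -0.45 in E1. On the probe set at 0.065 the arrays of the clones overlapped. Nrp1, the co-receptor of Sema3a, differed by -0.21 ± 0.15, and its 4 probe sets lay between -0.21 and -0.49. The difference between the genes was not tested.

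Of the plexins, Plxna1, a receptor that pairs with neuropilins, read 6.48 and 6.35 in C1 and 7.20 and 7.28 in E1. It differed by 0.83 ± 0.15 (1.77-fold, adjusted p = 0.15 in limma), with 0.72 on its other probe set. Plxna2 differed by 0.60 ± 0.21 in the same direction, at 4.22 and 4.20 in C1 and 4.51 and 5.11 in E1, but another of its probe sets with a mean above background gave -0.21. Plxnc1 read 3.55 and 4.31 in C1 and 3.03 and 2.97 in E1, and was above background on 1 array of C1 only. The bound of at least 1.08-fold lower in E1 rests on that Deaf-1 array, and no bound follows from the control arrays. Its other 5 probe sets had means below background, and 3 of them had the same sign. Among the remaining plexins, the differences lay between -0.011 for Plxna4 and 0.24 for Plxnb2.

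The semaphorins gave the 2 genes that were lower in E1. Sema3e, a secreted ligand, read 6.03 and 6.27 in C1 and 5.25 and 5.26 in E1. The difference was -0.89 ± 0.15 (1.86-fold, adjusted p = 0.14 in limma), and all 4 Sema3e probe sets were lower in E1, by values from -0.49 to -1.07. Sema4a, a membrane-bound semaphorin, read 5.03 and 4.28 in C1 and 3.35 and 3.54 in E1, where it was below background. It was at least 1.77-fold lower in E1 (adjusted p = 0.18 in limma), with a wide spread in C1. Its second probe set was below background on all 4 arrays.

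Sema7a read 4.38 and 4.27 in C1 and 4.94 and 5.01 in E1, a difference of 0.64 ± 0.15. Sema4b differed by -0.35 ± 0.15, and by 0.20 on its second probe set, also above background by its mean. Sema3f itself, with its co-receptor Nrp2 higher in E1, differed by -0.028 ± 0.16, and its other probe sets gave -0.60 and 0.39. Sema3a and Sema4d, the other ligands of the pairs, differed by 0.23 ± 0.16 and 0.041 ± 0.22.

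Over all 52 genes, the arrays of the clones did not overlap in 30, with 19 higher and 11 lower in E1. This is 57.7%, against 51.8% of all genes. The median difference was 0.054 (0.016 over all genes) and the median size 0.21 (0.19 over all genes). Of the 7 genes at an unadjusted p under 0.01, 6 had more than 1 probe set, and in each of these every further probe set had the same sign.

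**Figure D3:**
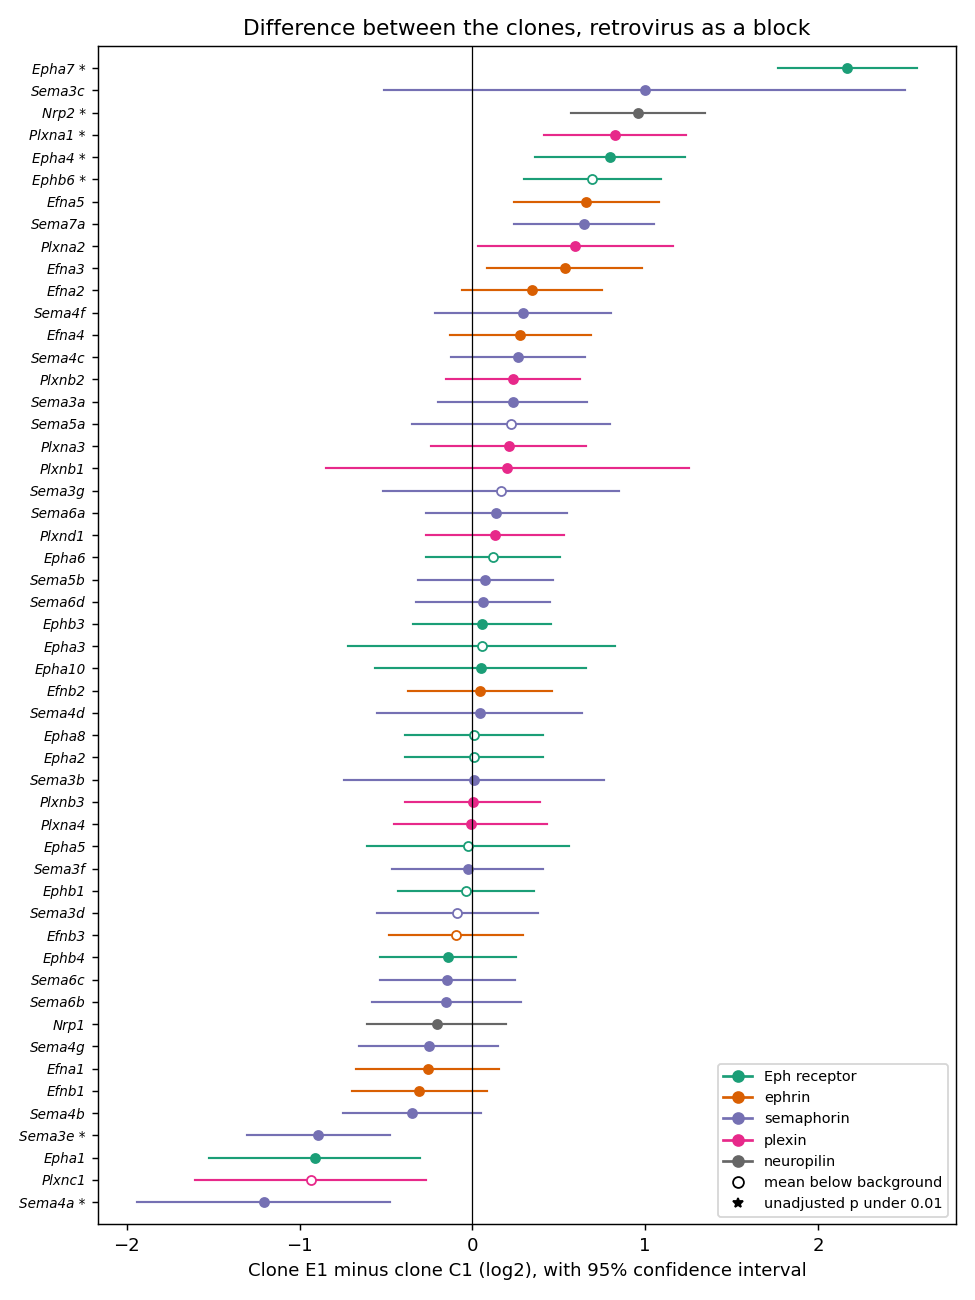
Difference between the clones (E1 minus C1, log2, x axis) for each of the 52 genes, with 95% confidence intervals from limma with retrovirus as a block. Stars mark an unadjusted p under 0.01 and open points a mean below background. For Epha7, Epha4, Sema4a and Plxnc1 both arrays of 1 clone were below background, so the plotted fitted values give their direction and neither their size nor their rank. Both E1 arrays of Efnb3 were below it too, and no bound follows for that gene.

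**Figure D4:**
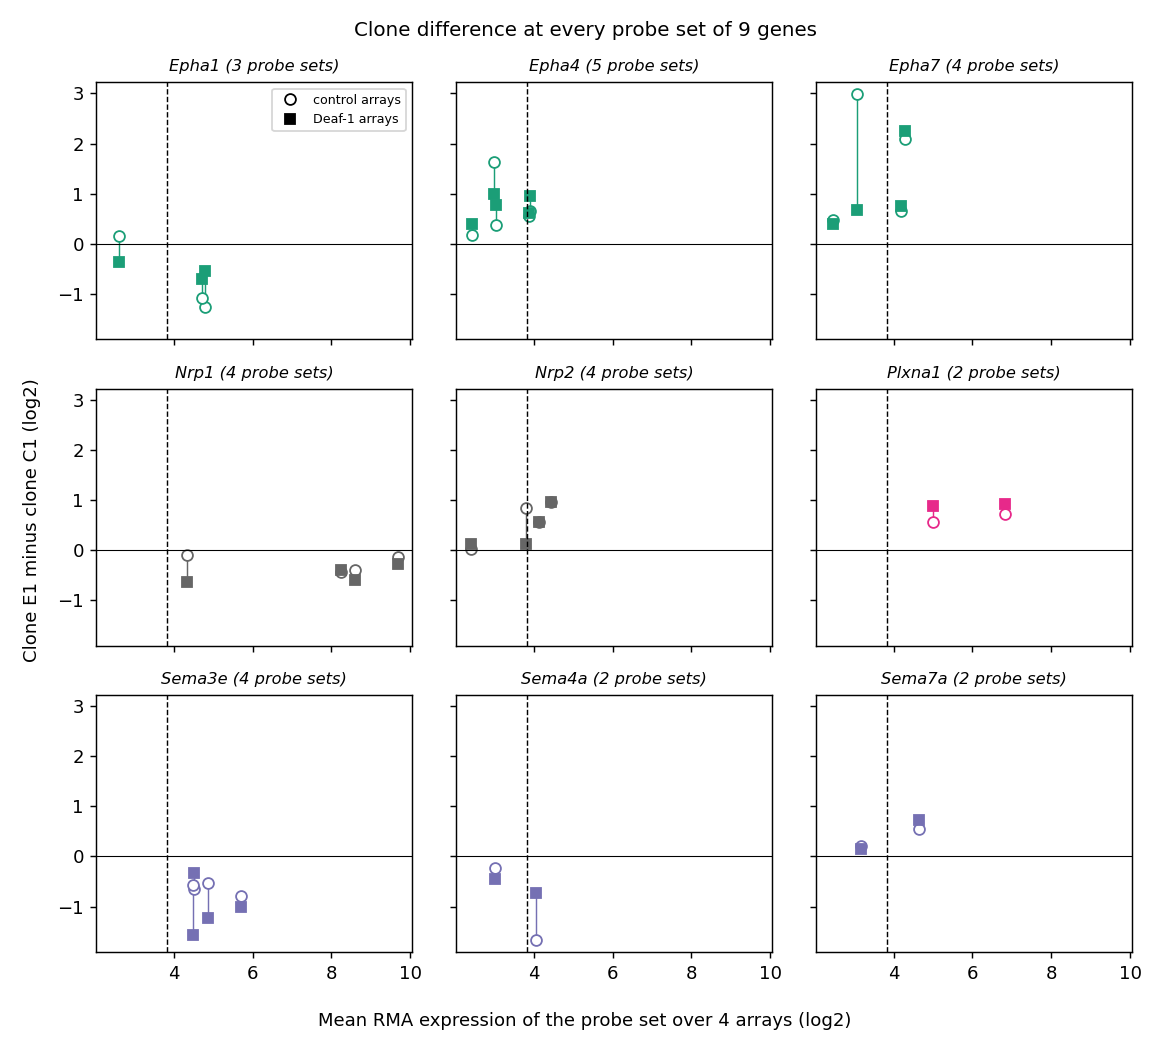
Clone difference (E1 minus C1, log2, y axis) at every probe set of 9 genes against its mean level (x axis), separately for the control arrays (circles) and the Deaf-1 arrays (squares). The dashed line is the background level; the 4 Sema3e probe sets lie below 0 and the 4 Epha7 probe sets above it with either retrovirus.

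Other cell-type markers moved between the same arrays. The summed linear level of the fibroblast list was 35593 to 36267 in C1 and 40356 to 42282 in E1, and that of 6 endothelial markers, of which 2 had means above background, 136 to 170 in C1 and 205 to 208 in E1. For the neuron and Schwann cell list, of which 3 of 5 measured markers had means above background, the sums were 110 to 118 and 114 to 156. The sums of the 8 myoepithelial and basal markers went the other way, from 3564 to 3747 in C1 and from 2911 to 3023 in E1. Those of the 9 luminal markers were 235 to 262 and 200 to 243. At an unadjusted p under 0.01 in limma, 1 marker of each of these lists was lower in E1. Of the fibroblast list 2 were higher and 1 was lower. Bright markers weigh most in such sums. The median log2 difference (E1 minus C1) was 0.16 for the myoepithelial and basal list and -0.032 for the luminal list. It was -0.037 for the endothelial, 0.17 for the fibroblast and 0.13 for the neuron and Schwann cell list. Of 3 measured adipocyte markers only 1, Fabp4, had a mean above background. It read 2.57 and 3.77 in C1 and 10.59 and 10.56 in E1, while the median log2 difference of the list was 0.13. The part of these in the clone differences was not tested.

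Genes that act with these ligands and receptors were examined through 4 lists of 103 genes, of which 99 were measured and 72 had means above background. With Deaf-1, 1 of 99 had an unadjusted p under 0.01, the GTPase Rac3 (0.73), which was known from earlier results when its list was written. Between the clones 0 had an adjusted p under 0.05 in limma, and 12 had an unadjusted p under 0.01, 7 higher and 5 lower in E1, against 6.95% of all genes. The fit without the block gave 12 with an adjusted p under 0.05, against 6.76% of all genes.

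Of 30 measured Eph and ephrin partners, 3 were higher and 2 lower in E1 at an unadjusted p under 0.01, the threshold that 6.95% of all genes passed. The higher ones were Sipa1l1, a Rap GTPase-activating protein (0.97 ± 0.15), the adaptor Nck2 (0.88 ± 0.18) and the Ras GTPase-activating protein Rasa1 (0.85 ± 0.14). The lower ones were Anks1b, an ankyrin-repeat adaptor (-2.13 ± 0.16), and the Src-family kinase Fyn (-1.42 ± 0.14). Of 36 semaphorin and plexin partners, Dpysl3, a cytoskeletal mediator of semaphorin signalling, was higher (1.16 ± 0.14) and Mical2, an oxidase that acts on actin, was lower (-0.96 ± 0.18).

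Of 26 netrin, slit and repulsive guidance genes, the netrin receptors differed in opposite directions: Unc5a was higher in E1 (0.92 ± 0.15) and Unc5b lower (-0.85 ± 0.15). The secreted netrin Ntn4 was also lower (-0.72 ± 0.16). Of 7 VEGF ligands and receptors, Vegfc (1.12 ± 0.21) and Vegfb (0.75 ± 0.16) were higher in E1. Neuropilins also serve as co-receptors of VEGF ligands. Adjusted p-values of these 12 genes lay between 0.055 and 0.18 in limma with the block.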

How the data were processed

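RNA of clones C1 and E1 with either retrovirus was hybridised to 4 Affymetrix Mouse Expression Set 430 2.0 arrays. The deposited log2 values had been made by the authors with RMA, named with limma in the submitters' notes without versions; summary and normalization over the arrays can shrink differences of dim probe sets, and array number limits the precision. Of 45101 probe sets, 64 AFFX controls were left out; 34945 had 1 gene symbol, 932 several and 9160 none.

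Arrays were grouped by retrovirus and clone as labelled. Models of limma 3.58.1 (lmFit, eBayes; R 4.3.3) were fitted to 45037 probe sets, two-sided, with Benjamini-Hochberg adjustment over them. Deaf-1 was compared without clone as a block, since the study treats the clones as replicates without stating its model (called at an unadjusted p under 0.01), and clones with retrovirus as a block (adjusted p under 0.05). The pairing comes from the shared clone: within-clone deviations from group means correlated at 0.54. Errors after ± are limma SEs.

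Genes were named by rule: members called, the 5 highest and 5 lowest moderated t above background per comparison, the highest mean per family, 6 ligand and receptor pairs and up to 4 genes per list. The genes with an unadjusted p under 0.01 between clones, Sema3c, Plxnb1 and others outside the rule were chosen after their values were seen. Members and lists were chosen with earlier results of these data known. The fits were tested on simulated data. Alternatives were other normalizations, filters, priors, probe set choices, the blocks and leaving out each array.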

Additional observations from a re-analysis of the deposited data

Results flagged for a closer look

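In 5 genes the change with Deaf-1 exceeded 0.3 on the log2 scale in each clone, with opposite signs; this size was chosen after the values were seen. The share of all genes at this size was not counted. Opposite signs of any size were found in 62.2% of all genes and in 57.7% of the guidance genes. The changes in the 2 clones correlated at -0.31 over all probe sets and at -0.39 over the guidance genes. With 1 array per clone and retrovirus the difference between the clones was not tested. Sema3c moved by 0.71 in C1 and by -1.49 in E1, so E1 minus C1 was -2.19; its second probe set, below background by its mean, moved by -0.35 and -0.48. The semaphorin receptor Plxnb1 moved by -0.75 in C1 and by 0.72 in E1, a difference of 1.47. Its second probe set, below background on every array, moved by 0.14 and -0.18. Epha1 moved by -0.34 and 0.38, a difference of 0.71. Epha10 changed by -0.38 and 0.33, a difference of 0.71, with a mean of 3.84 that lies at the background level. Epha3 changed by -0.48 and 0.52, a difference of 1.005, below background on every array.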

How the results depend on the processing

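Of the guidance genes, the count called for Deaf-1 was 0 under every alternative run except leaving out 1 array: the range was 0 to 1, with Sema3c called without the control array of C1. With clone as a block, which uses the pairing of arrays by clone, it was 0, also at an adjusted p under 0.05, and 1 other guidance gene was called as without the block (0 with the background filter). Over 12 named genes, 178 of 185 values kept their direction and side of the threshold. Reversed were Nrp1 (0.081 with all its probe sets averaged) and Plxnb1 (0.0081 with cyclic loess). The fits that leave out 1 array had no clone block, so the difference between the clones enters their values. Leaving out 1 array moved Efna5 between -0.021 and 0.76, Sema3c between -1.44 and 0.66, and Plxnb1 between -0.49 and 0.45, and without a change of sign Efna2 between -0.47 and -0.032, Nrp1 between -0.29 and -0.0052, Sema4c between -0.29 and -0.018, Plxna4 between -0.24 and -0.074, Ephb3 between -0.22 and -0.093, Sema4g between 0.095 and 0.43 and Plxna3 between 0.17 and 0.55.

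Between the clones the count of 0 at an adjusted p under 0.05 depended on the settings: 2 with a further quantile normalization, 5 with median centring, 2 with cyclic loess, 1 above background, 2 at a mean of at least 6, 1 with a trend prior, 1 with probe sets averaged, 7 without the retrovirus block and 7 at an unadjusted p under 0.01. Fits without any 1 array had no retrovirus block and left a clone with 1 array, so they are not set beside these. The count was 0 with a robust prior, and also 0 without _x_at and _s_at probe sets. Without the block, as settings added after seeing the data, it was 9 with quantile normalization, 9 with median centring, 9 with cyclic loess, 8 above background, 2 at a mean of at least 6, 8 with a trend prior, 6 with a robust prior, 7 without _x_at and _s_at probe sets and 9 with probe sets averaged. Other guidance genes numbered 12 without the block and 2 above background. None of the 11 named clone differences reversed in 244 values. The cause of these shifts was not tested. For most of these settings the share of all genes was not counted, so the counts are not read as particular to the guidance genes.

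The number of guidance genes with a mean above background was 40, and 38 at the 99th percentile of olfactory receptor means. It was 30 with all probe sets of a gene averaged, a setting for which the share of all genes was not counted. Low signal over background limits the Eph receptors most, and 2 arrays per group limit all tests.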
